A study of Mus musculus with 4 samples.

Results

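The 10 genes described here are the Notch receptors Notch1, Notch2 and Notch3, the ligands Jag1, Jag2 and Dll1, the nuclear proteins Rbpj and Maml1, and the target genes Hes1 and Hey1. They were taken by gene symbol from the platform annotation, out of 18193 named genes on the array. They have 20 probe sets, of which 18 lay above the filter on low signals and were tested. The cells were basal keratinocytes of E16.5 mouse embryos, sorted by α6 integrin and YFP, and their RNA was measured on 4 expression arrays. The 2 cKO samples (Ko_1210 and KO_1261) came from embryos with SRF fl/fl, in which both alleles of Srf were floxed. The 2 het samples (het_1210 and het_1261) carried SRF fl/+, called wild type in the submitters' design text, and their strain label reads only Rosa26. Both groups shared the ROSA26 YFP fl/fl reporter and K14-Cre, a recombinase driven by the keratin 14 promoter that is active in basal keratinocytes. The controls thus also carried Cre and had a floxed copy of Srf. The titles share a first number (het_1210 and Ko_1210) and a second number (het_1261 and KO_1261) across the groups, but no label says what the numbers mark, or whether a sample came from 1 embryo or a pool. The p-values below measure only the spread between these samples, which may be in part technical.

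Notch receptors are cell-surface proteins that bind Jagged and Delta ligands on a neighbouring cell. Binding leads to cleavage of the receptor by an ADAM protease and then by γ-secretase, and the freed intracellular part joins RBPJ and a Mastermind coactivator on DNA to switch on Hes and Hey genes. In the embryonic epidermis this pathway promotes the step from basal to spinous cells, in which keratins 5 and 14 give way to keratins 1 and 10. The product of Srf, serum response factor, is a transcription factor of cytoskeletal and immediate early genes.

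Srf had a signal of 833.9 on het_1210, 1108 on het_1261, 47.9 on Ko_1210 and 80.4 on KO_1261 by its brighter probe set, so the arrays labelled cKO held less of its transcript. All 8 defining basal genes of the check on the sort (Krt5, Krt14, Trp63, Itga6, Itgb4, Itgb1, Col17a1 and Lama3) lay above the filter, which stood at a signal of 65.9. The spinous keratin Krt10 was also far above it on every array, from 24854 on KO_1261 to 58187 on het_1210. On all 4 arrays the trimmed mean signal was 500, so a change shared by all genes would not be visible. Differences are cKO minus het on the log2(signal + 1) scale.

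None of the 10 Notch genes passed in limma, either without a block or with the title number as a block. Without a block 0 of 11053 tested genes passed (0%), and with the block 97 genes did (0.878%), 28 higher and 69 lower in cKO. Srf itself, at -3.93, did not pass without a block but did with it. The fit without a block thus cannot tell whether a Notch gene changed. At an unadjusted p under 0.05, 0 of the 10 Notch genes were counted without a block, where the share of all tested genes was 0.597%, and 1 (Notch1) with the block, where it was 8.97%. The absolute differences of the 10 genes ran from 0.055 to 0.405 with a median of 0.146, beside 0.160 for all tested genes. The smallest absolute difference that passed with the block over all 22518 tested probe sets was 0.486, which is more than that of any Notch gene. Differences of the size seen here thus passed for no probe set in either of these fits, with 2 arrays per group. On average 8 of the 10 genes were higher and 2 lower in cKO, with a median difference of 0.11, where 46.2% of all tested genes were higher and their median was -0.02. The balance differed between the title numbers. Within the first number 7 of the 10 were higher, with a median of 0.14, while within the second number 5 were higher and 5 lower, with a median of -0.002.

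**Figure D1:**
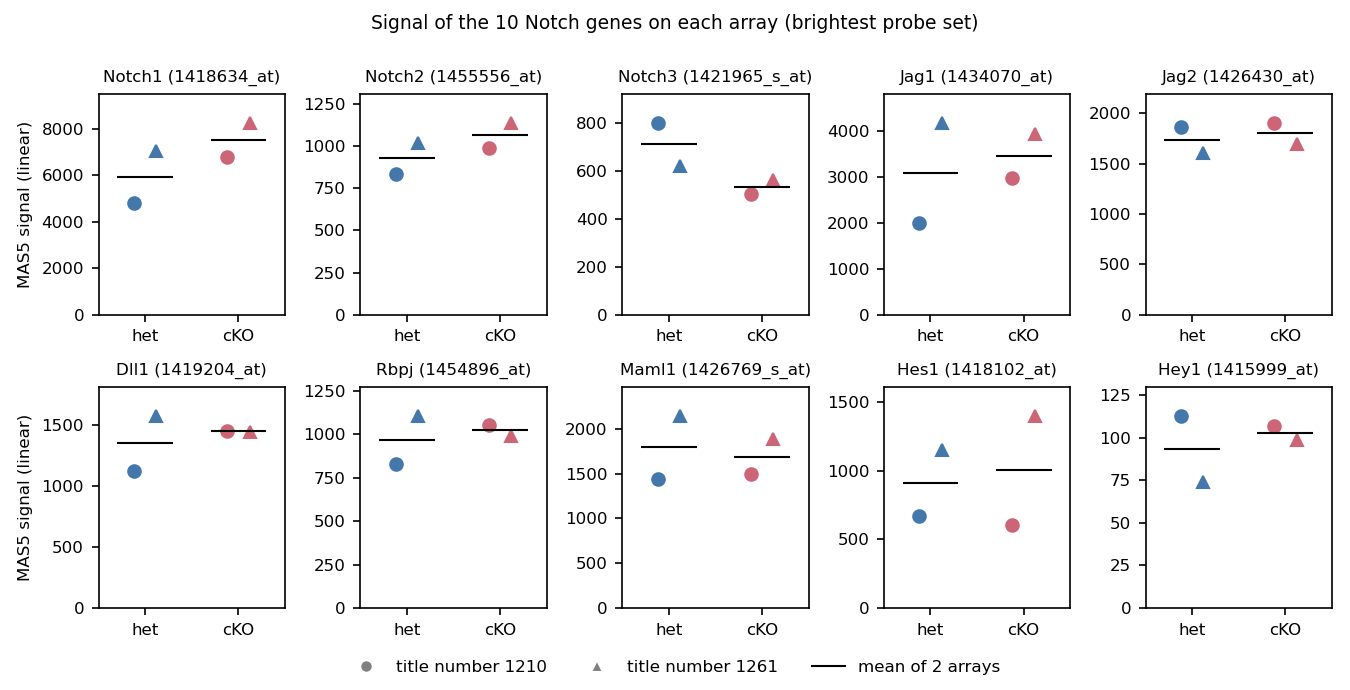
MAS5 signal on a linear axis from 0 for the brightest probe set of each of the 10 Notch genes, in het (blue) and cKO (red), with circles for the first title number, triangles for the second and a bar for the mean of 2 arrays. The groups are apart only for Notch3. Both arrays of the second title number lie above both of the first for 5 of the 10 genes, Hes1 among them, and below for 2.

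Notch1, the receptor with the best known role in epidermal differentiation, had signals of 4821 on het_1210, 7034 on het_1261, 6782 on Ko_1210 and 8257 on KO_1261. The cKO array was the higher one within each number, but the groups overlapped because het_1261 exceeded Ko_1210. The het mean was 5928 ± 1565 and the cKO mean 7519 ± 1043 (SD, n = 2). Notch1 differed by 0.36 ± 0.29 (SE) without a block, with a 95% interval from -0.38 to 1.10. It was 0.36 ± 0.14 with the block, with an interval from 0.08 to 0.65 and an adjusted p of 0.337. The other Notch1 probe set gave 779.0 and 963.9 in het and 825.8 and 1332 in cKO, a difference of 0.27 in the same direction. For both probe sets the cKO array was higher within the first number (0.49 and 0.08) and within the second (0.23 and 0.47). Notch1 had the largest positive difference among the 10 genes, although 21.2% of all tested probe sets differed by as much or more in either direction.

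Notch2, a receptor also found in keratinocytes, followed a like course at a smaller size. Its signals were 834.7 on het_1210, 1017 on het_1261, 985.4 on Ko_1210 and 1138 on KO_1261. Here too the cKO array was higher within each number (0.24 and 0.16) and the groups overlapped. The difference was 0.20 ± 0.25 without a block and 0.20 ± 0.18 with it. A second Notch2 probe set was below the filter, at 13.3 to 53.3, and was not tested.

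Notch3, which is known from vascular mural cells as well as from epidermis and is itself a Notch target in several tissues, was lower in cKO on average, as was Maml1. Its brighter probe set gave 803.6 on het_1210, 622.6 on het_1261, 507.0 on Ko_1210 and 562.2 on KO_1261. Both cKO arrays lay below both het arrays, the only one of the 10 genes for which the groups did not overlap. Over all tested genes, both cKO arrays were below both het arrays in 10.9% and above in 8.17%, so 1 of 10 below and 0 of 10 above is near the background. The difference was -0.41 ± 0.27 without a block, with an interval from -1.11 to 0.30. With the block it was -0.41 ± 0.20, with an interval from -0.82 to 0.005 and an adjusted p of 0.547. Most of it lay within the first number (-0.66, against -0.15 within the second). The suffix s of this probe set marks probes that match several transcripts. The other Notch3 probe set read 80.4 to 85.7 on the 4 arrays, just above the filter, with a difference of 0.02.

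Markers of mural cells moved with Notch3 in part, and so did those of other cells. The summed signal of 8 genes of pericytes and smooth muscle was 978.1 to 1432 in het and 854.7 to 1080 in cKO, highest on het_1210 and lowest on Ko_1210 like Notch3. Unlike in Notch3, KO_1261 lay above het_1261 in this sum, so its groups overlapped. The 5 of these genes above the filter were all lower in cKO on average, with a median of -0.47, and the other 3 (Tagln, Myh11 and Abcc9) were below the filter. The median of the 5 was -0.72 within the first number but -0.004 within the second. In 3 of the 5 (Cspg4, Pdgfrb and Rgs5) both cKO arrays lay below both het arrays, beside 10.9% of all tested genes, and 0 passed in either fit. Of 9 dermal fibroblast genes 7 were lower in cKO and 2 (Dcn, 0.06, and Pdgfra, 0.75) were higher. With the block 3 passed as lower (Twist2 at -1.21, Vim at -0.71 and Col3a1 at -0.62), beside 0.624% of all tested genes, and without it 0 did. Their summed signal was 39705 to 46854 in het and 34897 to 36319 in cKO. The 8 endothelial genes summed to 604.9 to 668.1 in het and 414.3 to 513.5 in cKO, again in the order of Notch3, with Pecam1, Tek and Tie1 below the filter. Of 8 melanocyte genes the 5 above the filter were all lower, with sums of 770.0 to 1461 in het and 748.9 to 796.7 in cKO, and of 8 immune genes the 3 above it were, with sums of 745.7 to 787.1 and 391.3 to 630.6. Among the immune genes Laptm5 passed with the block (-1.47, adjusted p = 0.0367). Of 7 hair placode genes 2 were higher and 5 lower, and Lhx2 passed with the block (-1.21, adjusted p = 0.00587). In 3 of the 7 both cKO arrays lay below both het arrays (10.9% of all tested genes) and in 1 above (8.17%). Their sums were 13915 to 15227 in het and 14143 to 15017 in cKO, most of which was the signal of Ptch1 alone (9785 to 12468). These 5 calls (Twist2, Vim, Col3a1, Laptm5 and Lhx2) were made in limma with the block, and each ended when median centring, no filter or no variance trend was added to it. Without het_1210 the difference of Col3a1 was -0.40, that of Vim -0.36 and that of Lhx2 -0.52. Without het_1261 that of Lhx2 was -1.89, and without Ko_1210 that of Twist2 was -0.69. Within the first number the medians of tested genes were -0.96 for fibroblast, -0.77 for endothelial, -0.90 for melanocyte, -0.80 for immune and -0.30 for placode genes. Within the second number they were -0.22, -0.15, -0.05, -0.77 and -0.22. The part of such cells in the Notch3 difference was not tested. In sorted cells measured in bulk, fewer cells of a type and less RNA per cell cannot be told apart.

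Jag1, a ligand found mainly above the basal layer, varied more between the title numbers than between the groups. Its brightest probe set gave 2000 on het_1210, 4189 on het_1261, 2975 on Ko_1210 and 3949 on KO_1261. The lowest and the highest value were both het arrays, and the cKO arrays lay between them. The difference was 0.57 within the first number and -0.09 within the second, with a mean of 0.24 ± 0.42 without a block and 0.24 ± 0.16 with it. A second probe set showed the same order except at the top, with 259.2 and 782.3 in het and 453.6 and 813.4 in cKO. The dimmest probe set went against both, with 141.9 and 120.6 in het and 85.5 on both cKO arrays. Its cKO signals were not far above the filter at 65.9, and its difference of -0.61 ± 0.40 did not pass. The Jag1 probe sets thus disagree in sign, and no direction can be given for the gene. Among the 18 tested probe sets of the Notch genes, this one and the brighter one of Notch3 had both cKO arrays below both het arrays (10.4% of all tested probe sets), and 1 of Rbpj had them above (7.91%).

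Transcripts of outer layers differed in amount between the arrays. The summed signal of 7 periderm and granular genes, among them loricrin and involucrin, was 1713 on het_1210, 10813 on het_1261, 4107 on Ko_1210 and 6534 on KO_1261, the order of Jag1. Loricrin (Lor) alone made up most of the sum, at 1063, 9592, 3418 and 5705 on the same arrays. The other 4 tested genes did not share the order: Ivl was higher on Ko_1210 than on KO_1261, Krt18 was lowest on Ko_1210, and Krt4 and Krt8 were highest on het_1210. Of the 7 genes, Krt19 and Flg were below the filter. Of the 5 above it, 2 were higher and 3 lower in cKO on average. The order was not particular to outer layers. The basal gene Itga6 had it too (6610 on het_1210, 9219 on Ko_1210, 10725 on KO_1261 and 12525 on het_1261), as did Maml1. The part of outer-layer genes in the Jag1 differences was not tested.

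**Figure D2:**
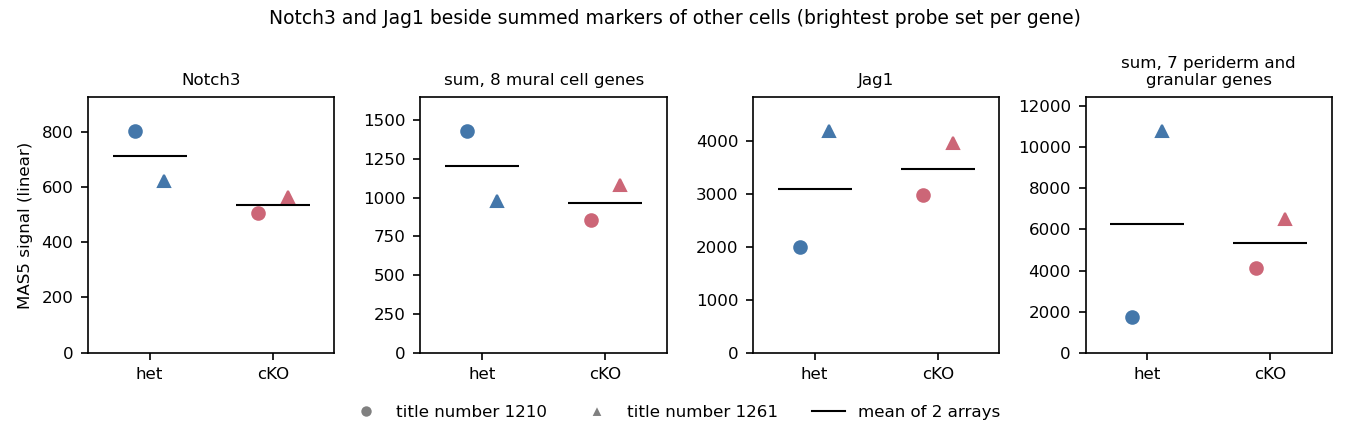
MAS5 signal on linear axes from 0 for Notch3, the sum of 8 mural cell genes, Jag1 and the sum of 7 periderm and granular genes, by group, with circles for the first title number, triangles for the second and a bar for the mean of 2 arrays. Notch3 and the mural cell sum are both highest on het_1210 and lowest on Ko_1210, but the groups overlap in the mural cell sum and not in Notch3. Jag1 and the periderm and granular sum share the order of all 4 arrays, that of Lor, which makes up most of the sum. The basal gene Itga6 and Maml1, not drawn here, have that order too.

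Jag2, the ligand of the basal layer, was the steadiest of the 10 genes. It gave 1866 on het_1210, 1600 on het_1261, 1906 on Ko_1210 and 1692 on KO_1261. The difference was 0.06 ± 0.23 without a block, with an interval from -0.53 to 0.64, and 0.03 and 0.08 within the numbers. The other Jag2 probe set gave 1465 and 1277 in het and 1538 and 1333 in cKO, the same order of arrays and a difference of 0.07. With the block the interval of the brighter probe set was -0.28 to 0.39. That interval is narrower but draws mostly on other probe sets, and neither interval shows that there was no change.

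Dll1, a Delta-type ligand known from stem cell clusters of human basal epidermis, gave 1124 on het_1210, 1579 on het_1261, 1457 on Ko_1210 and 1442 on KO_1261. The cKO arrays were nearly equal and lay between the het arrays. The difference was 0.37 within the first number and -0.13 within the second, with a mean of 0.12 ± 0.27.

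Rbpj, the DNA-binding protein on which all Notch receptors act, had the profile most like that of Dll1. Its signals were 831.2 on het_1210, 1108 on het_1261, 1054 on Ko_1210 and 993.0 on KO_1261. After each profile's mean was subtracted, the log2 values of Rbpj and Dll1 differed by 0.037 on average over the 4 arrays, the smallest such distance between any of the 10 genes. The next smallest was 0.105, between Notch1 and Notch2. The difference of Rbpj was 0.09 ± 0.26, with 0.34 within the first number and -0.16 within the second. A second Rbpj probe set gave 500.9 and 553.8 in het and 548.4 and 513.6 in cKO, a difference of 0.01. The third was dimmer, at 164.8 and 199.3 in het and 222.8 and 222.7 in cKO, and did not overlap, with a difference of 0.30 ± 0.34 that did not pass.

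Maml1, a coactivator of the Mastermind family that binds the complex of Notch and RBPJ, gave 1441 on het_1210, 2147 on het_1261, 1493 on Ko_1210 and 1884 on KO_1261. Both arrays of the second number were above both of the first number. The difference between the groups was -0.07 ± 0.30, and it turned to 0.05 when arrays were centred on their medians. A dimmer probe set, with 290.0 and 392.1 in het and 249.2 and 380.3 in cKO, gave -0.13. The last Maml1 probe set was below the filter at 15.9 to 48.9.

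Hes1, the repressor most often read as a sign of Notch activity, was separated by title number and not by group. It gave 666.5 on het_1210, 1147 on het_1261, 606.0 on Ko_1210 and 1400 on KO_1261. Within the first number the cKO array was lower (-0.14) and within the second it was higher (0.29). The mean difference was 0.07, with a standard error of 0.51 and an interval from -1.23 to 1.38 without a block. With the block the standard error was 0.19, the interval -0.30 to 0.45 and the adjusted p 0.951. The second number exceeded the first number by 1.72-fold in het and by 2.31-fold in cKO, and in 1.78% of all tested genes both ratios were at least as large.

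Hey1, a related repressor, was much closer to the filter, at 113.0 on het_1210, 73.8 on het_1261, 107.2 on Ko_1210 and 98.8 on KO_1261. The het arrays were the highest and the lowest and enclosed both cKO arrays. The difference was 0.17 ± 0.45, with -0.07 within the first number and 0.42 within the second. At this signal the interval with the block ran from -0.68 to 1.02, the widest of the 10 genes.

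**Figure D3:**
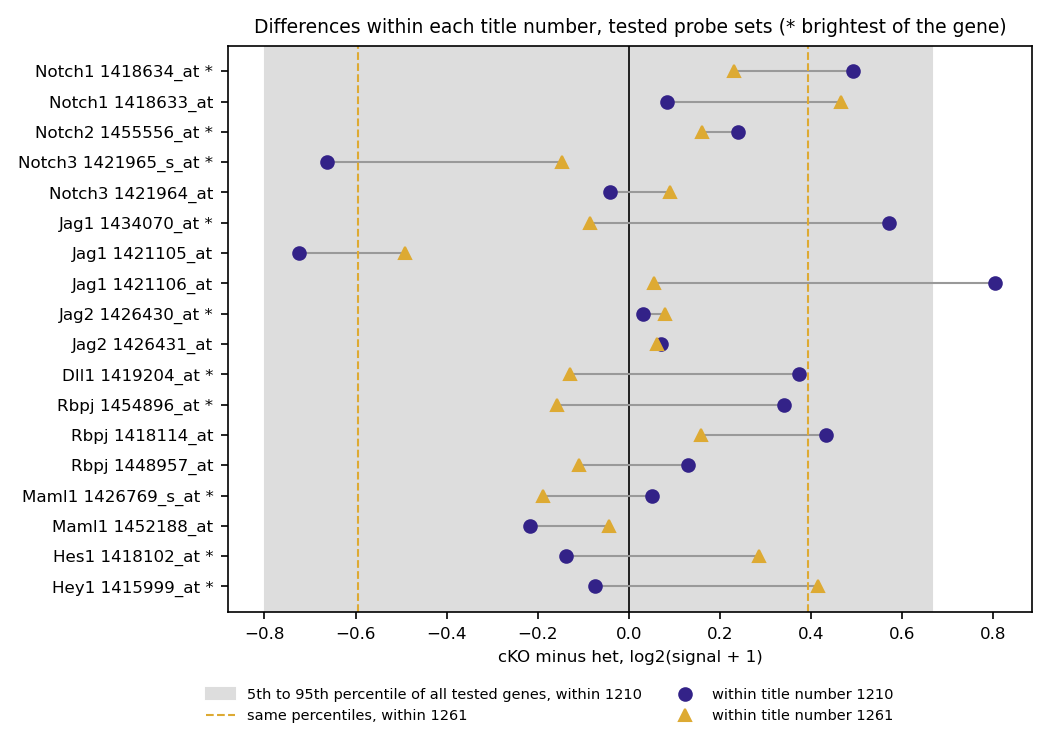
Difference of cKO minus het on the log2(signal + 1) scale for the 18 tested probe sets, within the first title number (circles) and the second (triangles), each from 1 array per group, with the brightest probe set of a gene starred. The grey band is the 5th to 95th percentile of all tested genes within the first number (-0.80 to 0.67), and the dashed lines are the same percentiles within the second (-0.59 to 0.39). Of the starred values Hey1 at 0.42 in the second number lies outside its own range, and 6 of the 10 starred pairs straddle 0.

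The difference between cKO and het had opposite signs within the numbers for 6 of the 10 genes (Jag1, Dll1, Rbpj, Maml1, Hes1 and Hey1) and the same sign for 4 (Notch1, Notch2, Notch3 and Jag2). Over all tested genes it had opposite signs in 44.0%. With 1 array per group and number, the difference between the numbers has no test. Between the numbers, both arrays of the second number were above both of the first for 5 of the 10 genes, where this held for 25.5% of all tested genes. These were Notch2, Jag1, Maml1, Hes1 and Notch1. For Jag2 and Hey1, 2 of the 10, both arrays of the second number were below, as in 41.5% of all tested genes. The median difference of all tested genes, second minus first number, was -0.13 in het and -0.12 in cKO. The 12 poly-A spike-in probe sets, of RNA added before labelling, were higher in the first number, by 2.45-fold among the het arrays and by 2.52-fold among the cKO arrays. Between the groups they differed by 0.885-fold within the first number and 0.861-fold within the second (cKO over het). The part of this in the differences of Hes1 and Jag1 between the numbers was not tested.

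**Figure D4:**
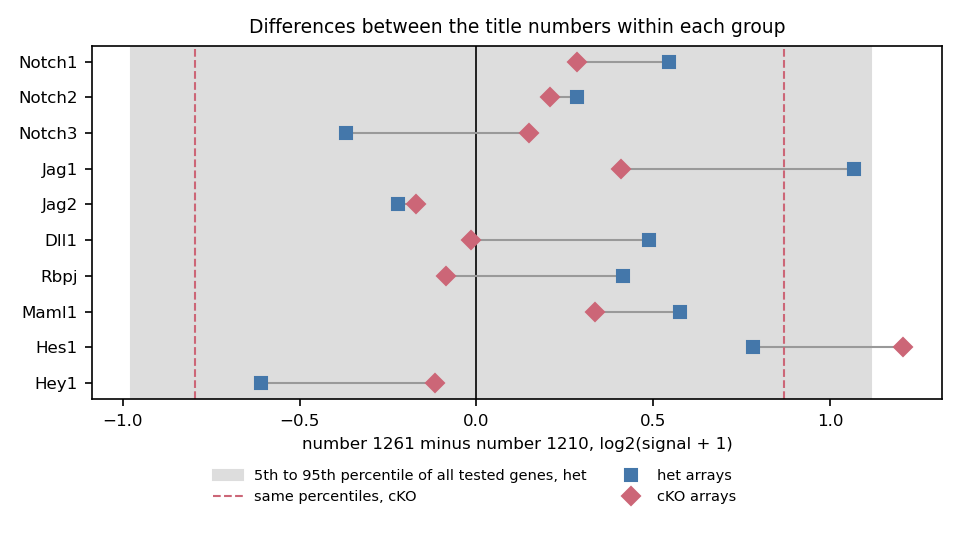
Difference of the second minus the first title number on the log2(signal + 1) scale for the 10 Notch genes, within het (squares) and within cKO (diamonds), each from 1 array per number. The grey band is the 5th to 95th percentile of all tested genes in het (-0.98 to 1.12), and the dashed lines are the same percentiles in cKO (-0.79 to 0.87). Hes1 has the largest value, 1.21 in cKO, and Jag1 the next, 1.07 in het.

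Sequences before the start sites are shown for Rbpj, Notch3 and Notch1, which held a searched motif of RBPJ or Hes proteins, and for Srf as the deleted gene. The RefSeq promoter table (GRCm38.p6) had entries for 8 of the 10 genes, with 10 start sites, and the 250 bases before each were searched on both strands. The target genes Hes1 and Hey1 had no entry, so their promoters were not searched. Rbpj held the RBPJ core TGGGAA at 2 places, starting 149 bases before the start site and, on the other strand, 65 bases before it. No other of the 8 genes held it, and 21.6% of all 32851 start sites did. The HES N box CACNAG was found before Notch1, Notch2 and Notch3, and before 36.7% of all start sites. Thus 1 of 8 genes with the core and 3 of 8 with the N box are near the background. The CArG box, the site that serum response factor is known to bind, was found before none of the 8 genes and before 1.47% of all start sites, while Srf itself held 2. The longer RBPJ form GTGGGAA (5.42% of all start sites) and the E box CACGTG (6.02%) were found in none of the 8. GTGGGAA contains the RBPJ core, so the counts of the core and of its longer form are not independent. The sequences run toward the start site, with the RBPJ core in capitals in Rbpj (chr5:53590096-53590345, plus strand), the N box in Notch3 (chr17:32166891-32167140, minus strand) and Notch1 (chr2:26503823-26504072, minus strand), and the CArG box in Srf (chr17:46556163-46556412, minus strand).
Rbpj: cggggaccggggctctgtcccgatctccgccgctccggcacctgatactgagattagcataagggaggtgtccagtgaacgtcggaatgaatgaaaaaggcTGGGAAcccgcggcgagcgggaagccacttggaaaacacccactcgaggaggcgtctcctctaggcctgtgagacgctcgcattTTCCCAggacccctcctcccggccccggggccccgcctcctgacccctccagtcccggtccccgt
Notch3: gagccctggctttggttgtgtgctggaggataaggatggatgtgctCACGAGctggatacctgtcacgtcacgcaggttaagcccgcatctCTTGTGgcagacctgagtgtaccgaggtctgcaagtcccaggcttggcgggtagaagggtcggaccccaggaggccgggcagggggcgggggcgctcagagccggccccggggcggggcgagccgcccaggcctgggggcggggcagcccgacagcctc
Notch1: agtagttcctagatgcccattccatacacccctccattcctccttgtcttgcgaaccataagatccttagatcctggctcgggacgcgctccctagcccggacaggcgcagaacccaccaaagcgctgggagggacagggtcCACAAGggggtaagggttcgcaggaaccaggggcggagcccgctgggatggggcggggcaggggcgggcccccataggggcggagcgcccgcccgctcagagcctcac
Srf: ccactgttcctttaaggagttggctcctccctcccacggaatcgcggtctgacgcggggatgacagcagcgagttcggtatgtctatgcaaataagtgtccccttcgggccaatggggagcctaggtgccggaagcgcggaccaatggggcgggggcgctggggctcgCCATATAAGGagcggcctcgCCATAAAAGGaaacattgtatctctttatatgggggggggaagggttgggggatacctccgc
A match is a run of letters and not a shown binding site.

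The other genes of the pathway were read from a list of 59, of which 54 were matched on the array and 43 tested. In limma 0 of the 43 passed without a block, and at an unadjusted p under 0.05 also 0. With the block 1 passed, lower in cKO, where 0.624% of all tested genes were lower and passed. At an unadjusted p under 0.05 the block counted 8 of the 43, beside 8.97% of all tested genes, and 6 of these 8 belong to ubiquitination and endocytosis. Their median difference was -0.003 with 21 higher and 22 lower, beside -0.02 for all tested genes. The 1 gene was Dlk1, a Delta-like membrane protein that lacks the receptor-binding domain of the canonical ligands. Dlk1 had signals of 620.2 on het_1210, 811.2 on het_1261, 293.5 on Ko_1210 and 552.4 on KO_1261, so both cKO arrays lay below both het arrays. The difference was -0.82 ± 0.21 with the block (-1.08 and -0.55 within the numbers), with an adjusted p of 0.0482. Its call ended with median centring (adjusted p = 0.164), a robust prior (0.0714), no variance trend (0.736) and no filter (0.328), each with the block. Without Ko_1210 the difference was -0.36 and without KO_1261 it was -1.27. Dlk1 is also known from embryonic mesenchyme. The part of such cells in its difference was not tested, and of the fibroblast genes given with Notch3 7 of 9 were lower and 2 higher. Of the other noncanonical or vascular members, Dlk2 differed by 0.11 while Notch4, Dll3, Dll4 and Dner were below the filter.

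Of 8 tested genes of receptor cleavage 2 were higher and 6 lower, with a median of -0.13, and 0 passed in either fit. In 2 of the 8 both cKO arrays lay below both het arrays, beside 10.9% of all tested genes. These were Psen2, a catalytic subunit of γ-secretase, at -0.40 ± 0.28, and Furin, the protease that matures the receptor, at -0.22 ± 0.20 (SE with the block). The 4 tested genes of receptor glycosylation were all slightly lower, with a median of -0.03, and 0 passed. Of 13 tested genes of ubiquitination and endocytosis 8 were higher and 5 lower, and 0 passed. In 4 of the 13 both cKO arrays were above both het arrays (8.17% of all tested genes) and in 2 below (10.9%). Dtx3, of the Deltex family of ubiquitin ligases, was one of the 4, with 324.3 and 390.0 in het and 524.0 and 574.8 in cKO, a difference of 0.62 ± 0.21 with an adjusted p of 0.230 with the block. Its relative Dtx4 went the other way, with 178.1 and 187.6 in het and 122.4 and 100.3 in cKO, a difference of -0.72 ± 0.34. Mib2, a ubiquitin ligase of the ligands, differed by -0.60 ± 0.23, and Fbxw7, which marks the cleaved receptor for destruction, by 0.38 ± 0.19. The 14 tested coactivators and corepressors had a median of 0.04, 9 higher and 5 lower, and 0 passed.

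Among further target genes, Hes5, Hes7 and Hey2 were below the filter. Nrarp, a target that dampens Notch signalling, gave 3606 on het_1210, 2035 on het_1261, 2535 on Ko_1210 and 1752 on KO_1261. The cKO array was the lower one within each number (-0.51 and -0.22), but het_1261 lay below Ko_1210. The difference of -0.36 ± 0.16 with the block did not pass (adjusted p = 0.442). Heyl lay near the filter, at 45.7 to 127.8, with 1.06 within the first number and -0.66 within the second. Hes1, Hey1, Nrarp and Heyl thus gave 3 positive and 1 negative mean difference. The 3 positive ones (Hes1, Hey1 and Heyl) had opposite signs within the numbers, as did 44.0% of all tested genes, and Nrarp did not.

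**Figure D5:**
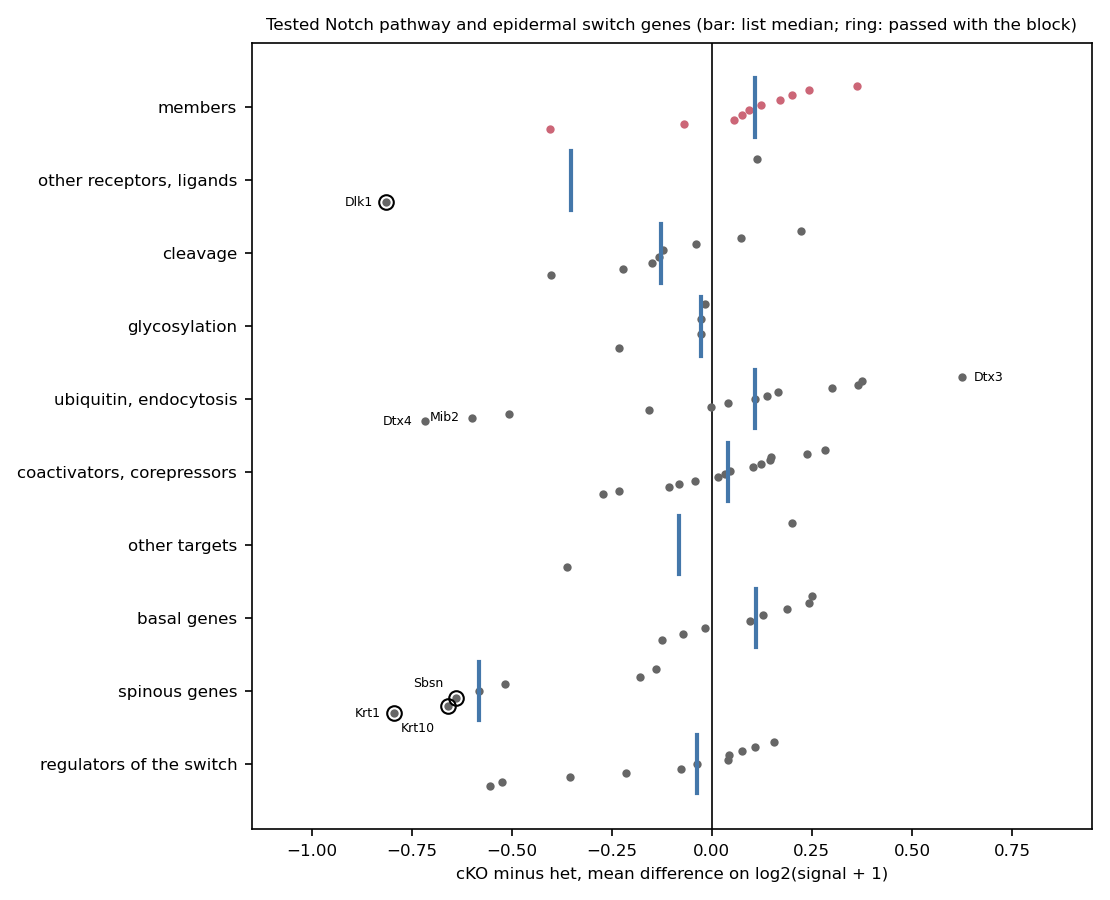
Mean difference of cKO minus het on the log2(signal + 1) scale for the tested Notch genes (red), the other pathway genes and the epidermal genes of the basal to spinous step (grey), 1 point per gene, grouped by role, with a bar at each list's median and a ring where a gene passed in limma with the block. The only rings are on Dlk1 and on the spinous genes Krt1, Krt10 and Sbsn.

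The genes of the step that Notch is known to promote were read on the same arrays. Each of the 7 tested spinous genes was lower in cKO. Their median was -0.58 (-0.53 and -0.42 within the numbers), and 3 passed with the block, beside 0.624% of all tested genes that passed as lower. Without the block 0 of the 7 passed. Krt10 had signals of 58187 on het_1210, 33198 on het_1261, 31135 on Ko_1210 and 24854 on KO_1261, a difference of -0.66 with a 95% interval from -0.91 to -0.41 with the block. Krt1 fell by 0.80 and Sbsn fell by 0.64 in the same fit. The 3 calls ended when no variance trend (adjusted p = 0.736 for each) or no filter (0.269 for Krt1, 0.466 for Krt10 and 0.274 for Sbsn) was combined with the block. With the block and median centring those of Krt10 (0.0701) and Sbsn (0.140) ended too, and that of Krt1 did not (0.045). Without het_1210 the differences were -0.34 for Krt1, -0.26 for Krt10 and -0.33 for Sbsn, and without het_1261 they were -1.26, -1.06 and -0.95. Dsg1a, a desmosomal cadherin, had 2989 and 2966 in het and 2076 and 2088 in cKO, a difference of -0.52 that did not pass (adjusted p = 0.129 with the block). Of the 8 basal genes 5 were higher and 3 lower, with a median of 0.11, and 0 passed. Of 11 tested regulators of the switch, such as Klf4, Cebpa and Tfap2a, 5 were higher and 6 lower, with a median of -0.04, and 0 passed. Cebpb, a C/EBP factor, was the only one of the 11 whose groups did not overlap, at -0.21 ± 0.15 (SE with the block). Both its cKO arrays lay below both het arrays, as in 10.9% of all tested genes. Within the second number it differed by only -0.002. The list of spinous genes was chosen with their values known.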

How the data were processed

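The deposited values are array intensity (linear MAS5 signal, 1 value for each probe set on each array), per the submitters' processing notes, which name no MAS5 version. Of 45101 probe sets 64 were controls and stayed out of the fits. In the platform annotation, 34945 of the others had 1 gene symbol (34741 updated through the Entrez identifier), 932 several and 9160 none. The probe set with the highest mean over the arrays stood for its gene.

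Signals were taken as log2(signal + 1). Those above the median probe set by mean log2 value, 22518 probe sets, were tested in limma 3.58.1 under R 4.3.3 (lmFit, then eBayes with trended variance). Each p was two-sided and was adjusted by Benjamini-Hochberg across those 22518, with 0.05 as the threshold. The fit without a block left 2 residual degrees of freedom. The fit with the title number as a block left 1 and relied on 34.4 prior degrees of freedom, so its standard errors draw mostly on other probe sets. Deviations of same-numbered arrays from their group means correlated at 0.755, but the labels do not describe a pairing. The number of arrays, 2 per group, limits the precision.

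Notch genes, pathway lists and marker lists were chosen with earlier results of these data known. The named genes were the 10 Notch genes and, of each pathway list and each list of the basal to spinous step, those that passed either fit and up to 4 by size whose groups did not overlap. Of the marker lists, all genes that passed are named. Nrarp, Heyl, Dlk2, Klf4, Cebpa, Tfap2a, Itga6 beside Jag1, the other marker genes and the genes below the filter were named after their values were seen. Promoter sequences are from RefSeq (GRCm38.p6). The fits were tested on simulated data. Figures were drawn with matplotlib 3.10.9.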

Additional observations from a re-analysis of the deposited data

How the results depend on the processing

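The Notch genes called stayed at 0 of 10 under every alternative run: quantile scaling, median centring, a pseudocount of 16, no filter, no variance trend, the replicate block alone, the block with each of these but the pseudocount, the block with a robust prior, and leaving out each array. With all 4 arrays and no block, no probe set passed at any of these settings, so they cannot tell whether a Notch gene changed. In limma with the block the adjusted p of Notch1 was 0.337. It was 0.0853 with quantile scaling added, 0.141 with median centring and 0.779 with no variance trend. The block, and the block with quantile scaling, called 1 other pathway gene (0 without it). Probe sets called went from 0 to 194 with the block, 84 with a robust prior too, 109 with median centring (74 higher and 35 lower, against 82 and 112), 365 with quantile scaling, 17 with no filter and 0 with no variance trend. Leaving out 1 array gave 0 to 5 without a block. Over 110 values of the Notch genes under 11 alternatives of scaling and model, 2 changed sign: Maml1 was 0.053 under median centring, with and without the block. Median centring shifted all tested genes too, whose median went from -0.02 to 0.10. Of the 10 other probe sets, 4 went against the brightest one: Notch2 -0.80 and Maml1 0.054 (both below the filter), Notch3 0.025 and Jag1 -0.61. Leaving out 1 array turned the sign of 7 genes, with ranges of -0.29 to 0.78 for Jag1, -0.056 to 0.17 for Jag2, -0.12 to 0.37 for Dll1, -0.11 to 0.30 for Rbpj, -0.36 to 0.22 for Maml1, -0.53 to 0.68 for Hes1 and -0.13 to 0.47 for Hey1. Notch1 (0.09 to 0.63), Notch2 (0.06 to 0.34) and Notch3 (-0.59 to -0.22) kept theirs. The cause was not tested. The genes with opposite signs within the numbers were 6 of 10, 5 under quantile scaling and 4 under median centring. The calls of Dlk1 and of spinous and marker genes in the report were made with the block and not without it.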
